A study of Mus musculus with 2 samples.

Results

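In all, 10 genes were followed that mark undifferentiated ES cells: the 4 developmental pluripotency associated genes Dppa2, Dppa3, Dppa4 and Dppa5a, together with Tdh, Utf1, Nr0b1, Fbxo15, Zscan10 and L1td1. All 10 were found by symbol among the 24354 genes with an FPKM value (fragments scaled to transcript length and library size). They were selected on the FPKM values of both libraries, so their direction is a description of the choice and no test is attached to it. One library was made from differentiating control ESCs (Diff–CONT), which carry the floxed Ino80 2f/2f allele without CreER and whose genotype is labelled WT. The other came from differentiating inducible Ino80 knockout ESCs (Diff–iKO, labelled Ino80 knockout), derived from Ino80 2f/2f blastocysts that also carry CreER at the ROSA26 locus, from which it is expressed widely. Both cultures formed embryoid bodies (EBs) that were attached on day 4. From the following day both received differentiation medium with BMP4 and 0.5 µM 4-OHTM, the tamoxifen derivative that activates CreER, for 7 days. With 1 library per condition, nothing here has a replicate check, and a difference between the 2 lines or cultures cannot be told apart from an effect of the deletion.

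Undifferentiated ES cells are held in that state by a network of transcription factors around Oct4 (Pou5f1), Sox2 and Nanog. The genes followed here belong to the layer below that core. They encode chromatin proteins, transcriptional regulators, RNA-binding proteins and enzymes that are abundant in ES cells and early embryos and are normally shut down as cells enter the germ layers. Several of them, Dppa3 among them, are used again in the germ line.

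The FPKM sums were 440099.5 and 469634.5 in the libraries labelled Diff–CONT and Diff–iKO, and the steps between low FPKM values corresponded to about 27578894 and 21518361 fragments on genes, a ratio of 1.28. Ino80 itself had FPKM values of 8.90 (labelled Diff–CONT) and 10.3 (labelled Diff–iKO), a value over the whole gene that does not resolve the floxed part and so does not check the deletion. Conditions are therefore named by label only, as the CONT-labelled and the iKO-labelled library, and of a pair of values the first is the CONT-labelled one. Across all 12376 genes with FPKM ≥ 2 in at least 1 library, 6.73% were higher and 8.39% were lower in the iKO-labelled library by a fold change (FC) of at least 2.

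All 10 markers had FPKM ≥ 2 in both libraries, and all 10 were past FC ≥ 2 toward the iKO-labelled library, against the 6.73% of all genes just given. Nothing is read from that contrast, since these values chose the genes. Levels ran from 2.32 to 258 FPKM in the CONT-labelled library, with a median of 11.9, and from 24.0 to 2115 in the iKO-labelled library, with a median of 51.2. Dppa2, the lowest marker of the latter, lay above 8 of the 10 markers of the former. Fold differences ranged from 2.38 for Zscan10 to 12.5 for Nr0b1, with a median of 4.77. Past FC ≥ 4 were 6 of the markers (background 2.25% of the 12376 genes, with 1.91% lower by as much), and past FC ≥ 8 were 3 (background 0.614%, with 0.711% lower by as much). Because the RNA came from whole cultures, more cells that express a marker and more RNA per cell cannot be told apart.

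**Figure D1:**
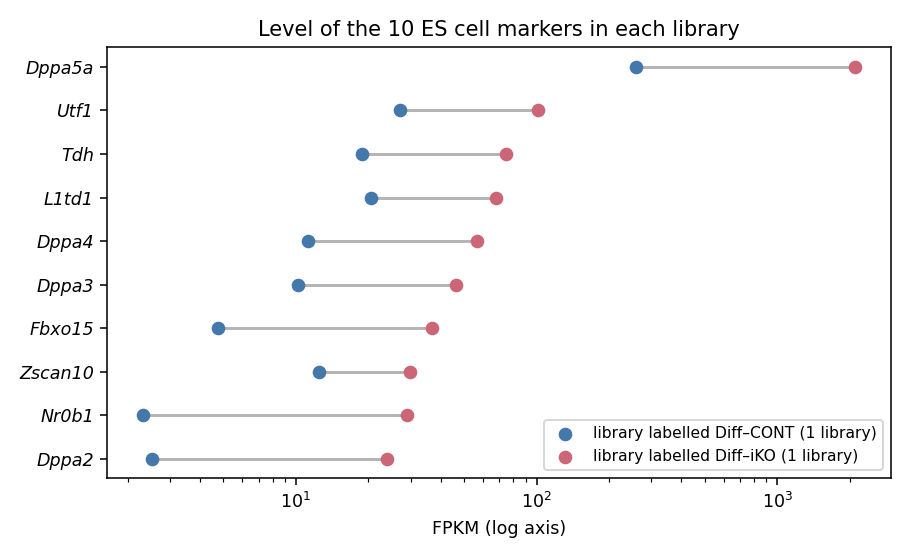
FPKM of each of the 10 markers on a log axis, in the CONT-labelled library (blue) and the iKO-labelled library (red), 1 library each, with a grey line joining the 2 values of a gene. Every red point lies to the right of its blue point, and Dppa5a lies apart from the rest at 258 and 2115 FPKM.

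Dppa2 and Dppa4 encode partner proteins with a SAP domain that bind chromatin together at bivalent and CpG-rich promoters. Both lie on chromosome 16 and on the same strand, Dppa4 from 48283733 to 48294237 and Dppa2 from 48303908 to 48319723 (GRCm38), with 20175 bp between their starts. Dppa2 had an FPKM of 2.52 in the CONT-labelled library and 24.0 in the iKO-labelled library. Dppa4 had 11.2 and 56.3. Dppa4 was thus the more abundant of the pair per length in both libraries. The fold of Dppa2 was 9.52 (95% counting interval 7.93 to 11.5) and that of Dppa4 was 5.02 (4.47 to 5.65). The intervals here come from the fragments behind each value and cover counting error only, not the variation between cultures.

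Dppa3, also called Stella or PGC7, encodes a maternal factor that protects the maternal genome of the zygote from loss of DNA methylation and restrains the methylation cofactor Uhrf1. It lies on chromosome 6 from 122626410 to 122630272. Dppa3 had an FPKM of 10.2 in the CONT-labelled library and 46.1 in the iKO-labelled library, a fold of 4.51 (interval 3.84 to 5.31), which rested on 197 and 669 fragments. GENCODE names a processed pseudogene of it, Dppa3-ps, which was not in the table, so fragments from such a copy could not be set apart. Of its 9 listed partners in DNA methylation that were measured, 2 were past FC ≥ 2, both higher. These were Dnmt3l, the cofactor of the de novo methyltransferases (14.8 and 61.5 FPKM), and Tet1, a 5-methylcytosine oxidase (8.25 and 36.0). Xpo1, the nuclear export receptor gene, was 85.0 and 93.7, Uhrf1 was 58.5 and 54.8, and Dnmt1, the maintenance methyltransferase, was 53.5 and 58.9. Dnmt3b was 53.0 and 26.6, a fold of 0.502 that lay just short of the cut-off. The median log2 ratio of these partners (with 0.1 added to each FPKM) was 0.14, beside 2.24 for the 10 markers and -0.01 for the 13145 genes whose mean FPKM was 1 or more.

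Dppa5a, or Esg1, encodes a small RNA-binding protein with a KH domain and lies on chromosome 9 from 78367052 to 78368177. It was by far the most abundant of the 10, with 258 FPKM in the CONT-labelled library and 2115 in the iKO-labelled library. Its rank among all genes went from 205 to 6. The fold was 8.20 (interval 7.90 to 8.51), from 3319 and 20541 fragments. GENCODE names 2 pseudogenes on the same chromosome, Dppa5b and Dppa5c, so fragments shared with such copies cannot be assigned with certainty. A further gene with the name stem, Dppa1, stayed under the FPKM minimum with 0.0160 and 0.472.

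L1td1 encodes an RNA-binding protein that descends from the first open reading frame of a LINE-1 element and associates with Lin28a. It lies on chromosome 4 from 98726734 to 98738480. The FPKM of L1td1 was 20.5 in the CONT-labelled library and 67.9 in the iKO-labelled library, a fold of 3.32 (interval 3.13 to 3.51). Lin28a, which encodes a repressor of let-7 processing, went the other way, with 103 and 28.6 FPKM, and had the lowest ratio among the other ES cell markers listed that had FPKM ≥ 2.

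Utf1 encodes a chromatin-associated transcriptional cofactor and lies on chromosome 7 from 139943789 to 139945112. It had 27.0 FPKM in the CONT-labelled library and 101 in the iKO-labelled library, a fold of 3.75 (interval 3.47 to 4.06). None of 8 genes listed around Utf1 (the list of Utf1 partners) was past FC ≥ 2 in either direction. The list includes Polycomb subunit genes, and being listed does not mean that a product binds Utf1. The Polycomb subunit genes Suz12 (36.5 and 67.5 FPKM) and Eed (24.3 and 46.8) had folds of 1.85 and 1.93, and Ezh2 was 39.7 and 33.2. Atf7, an activating transcription factor gene, had the lowest ratio with 12.1 and 7.54. The median log2 ratio of the 8 was 0.06, and it was -0.03 after both libraries were set to equal sums.

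Nr0b1, also called Dax1, encodes an orphan nuclear receptor that works mainly as a corepressor and binds Esrrb and Nr5a2. It lies on the X chromosome from 86191764 to 86195947. Nr0b1 had an FPKM of 2.32 in the CONT-labelled library, the lowest of the 10, and 28.9 in the iKO-labelled library. The fold of 12.5 (interval 10.3 to 15.3) was the largest of the set, and 33 of the 12376 genes (0.267%) had a ratio as high. Among the 419 X-linked genes with FPKM ≥ 2 in at least 1 library, 14.1% were higher past FC ≥ 2, beside 6.73% of all such genes. With 0.1 added to each FPKM, the X-linked median log2 ratio was 0.20. The like values were -0.0045 for all genes past that minimum and 3.59 for Nr0b1. The part of this X-linked difference in the value of Nr0b1 was not tested. Its partner Esrrb had 7.10 and 42.0 FPKM and Nr5a2 had 1.17 and 6.87.

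Zscan10, or Zfp206, encodes a zinc finger factor that acts with Oct4 and Sox2 and lies on chromosome 17 from 23600856 to 23611019. It had 12.5 FPKM in the CONT-labelled library and 29.7 in the iKO-labelled library. The fold of 2.38 (interval 2.16 to 2.62) was the smallest of the 10, and 4.67% of the tested genes had a ratio as high. RefSeq lists 5 transcripts of Zscan10, 4 of Fbxo15 and 2 of Dppa4, so the fragments behind the intervals of these 3 genes are approximate.

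RefSeq promoter sequences were matched for 4 of the 10 genes, Utf1, Nr0b1, Zscan10 and L1td1, as windows (GRCm38.p6, plus strand) of 250 bases before the transcript start and 50 after it. Sequence did not enter the choice of the genes, and the windows are described without a link to their ratios. The windows differed in base composition. CpG dinucleotides stood at 0.615 of the number expected from base content in Utf1, 0.559 in L1td1, 0.551 in Nr0b1 and 0.215 in Zscan10, beside a median of 0.384 over 32851 promoters. Zscan10 thus had the window with the fewest CpGs, 4 against 14 to 17 in the other 3. The 10 short motifs listed here were searched on both strands. GGGCGG, the GC box, occurred 4 times in Utf1, with first bases 138, 133, 85 and 56 bases before the start, the first pair sharing 1 base, and occurs in 35.7% of all promoters. TATAAA, the TATA box, occurred once in Nr0b1, 32 bases before the start, and occurs in 13.6% of all promoters. The octamer motif ATGCAAAT, the Sox motif CATTGTT, the Esrrb site TCAAGGTCA, the Klf motif GGGTGTGG, the CCAAT box, the E-box CACGTG, the CRE motif TGACGTCA and the E2F motif TTTCCCGC occurred in 0 of the 4 windows. They occur in 1.74%, 3.78%, 0.423%, 3.56%, 37.4%, 7.15%, 1.79% and 1.07% of all promoters, in that order. A match or its absence in these windows says nothing about binding. The bases before the RefSeq and GENCODE starts are shown for the 2 windows that hold a motif, with motif matches in capitals, and for Zscan10, the window poorest in CpG, which holds none. The shown stretch of Utf1 ends before the last of its GC boxes. They span chr7:139943606-139943788 for Utf1, chrX:86191525-86191763 for Nr0b1 and chr17:23600576-23600825 for Zscan10.
Utf1: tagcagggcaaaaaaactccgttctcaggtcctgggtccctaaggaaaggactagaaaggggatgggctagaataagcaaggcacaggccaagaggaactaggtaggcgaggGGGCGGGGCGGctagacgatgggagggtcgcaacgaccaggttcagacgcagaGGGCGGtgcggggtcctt
Nr0b1: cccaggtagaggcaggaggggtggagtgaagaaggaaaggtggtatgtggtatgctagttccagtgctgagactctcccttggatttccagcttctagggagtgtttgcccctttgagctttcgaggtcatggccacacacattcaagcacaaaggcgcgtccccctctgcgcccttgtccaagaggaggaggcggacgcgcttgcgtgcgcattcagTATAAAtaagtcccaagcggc
Zscan10: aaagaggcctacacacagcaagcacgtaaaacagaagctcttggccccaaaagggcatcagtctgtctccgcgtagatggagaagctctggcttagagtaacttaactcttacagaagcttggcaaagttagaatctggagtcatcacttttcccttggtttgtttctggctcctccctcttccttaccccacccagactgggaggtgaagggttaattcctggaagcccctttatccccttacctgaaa

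Tdh encodes threonine dehydrogenase, the mitochondrial enzyme that opens the threonine breakdown on which mouse ES cells rely for glycine and one-carbon units. It lies on chromosome 14 from 63492347 to 63509092. Tdh had an FPKM of 18.7 in the CONT-labelled library and 74.7 in the iKO-labelled library, a fold of 3.99 (interval 3.70 to 4.29). The enzymes around it were nearer to equal levels. Of 13 genes of threonine, glycine and one-carbon metabolism with FPKM ≥ 2, 0 were past FC ≥ 2 in either direction. Gcat, whose product takes the next step after Tdh, had 11.4 and 8.08 FPKM. Gldc, of the glycine cleavage system, had 38.3 and 58.5, and Shmt2, of mitochondrial serine and glycine exchange, had 44.1 and 53.3. The other glycine cleavage genes Amt (24.6 and 27.6), Gcsh (53.7 and 56.1) and Dld (50.02 and 43.8), the serine synthesis genes Phgdh (56.6 and 50.7), Psat1 (51.0 and 46.9) and Psph (13.7 and 14.4), and Shmt1 (20.2 and 27.7) went either way. Of the folate enzyme genes, Mthfd1 had 46.4 and 69.3, Mthfd2 17.1 and 26.3, and Mthfd1l 21.4 and 13.2. The median log2 ratio of the list was 0.07, and it was -0.02 after both libraries were set to equal sums.

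Fbxo15 encodes an F-box protein, the substrate-binding part of an SCF ubiquitin ligase, and was an early reporter gene for reprogramming. It lies on chromosome 18 from 84934782 to 84981473. The FPKM of Fbxo15 was 4.74 in the CONT-labelled library and 36.6 in the iKO-labelled library, a fold of 7.74 (interval 6.59 to 9.12). The common SCF subunits were at like levels in both libraries, with Cul1 at 55.1 and 58.0 FPKM Skp1a at 150 and 196, Nedd8 at 131 and 159, and Cand1 at 35.6 and 34.8. None of 5 such genes was past FC ≥ 2, and their median log2 ratio of 0.07 was -0.02 after both libraries were set to equal sums.

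The 10 genes are unlike in structure, with 2 exons in Utf1 and Nr0b1 and 10 in Fbxo15, and transcripts of 619 nucleotides in Dppa5a and 2942 in L1td1. Their ratios, which were part of the choice, were spread as follows. Nr0b1, Dppa2, Dppa5a and Fbxo15 lay at folds of 7.74 and above, while Dppa4, Dppa3, Tdh, Utf1 and L1td1 lay between 3.32 and 5.02, and Zscan10 lay below them. Of the 4 genes with the largest folds, Nr0b1, Dppa2 and Fbxo15 were also the 3 with the lowest FPKM in the CONT-labelled library, whereas Dppa5a had the highest. This relation is partly built in, since the fold is divided by that same FPKM. Among all 24354 genes, the level of Nr0b1 ranked 11597 and 3101, that of Dppa2 11417 and 3706, and that of Zscan10 6432 and 3023. The order of levels within the set differed accordingly. Zscan10 stood at place 5 in the CONT-labelled library and at place 8 in the iKO-labelled library, and Tdh and L1td1 exchanged places, as did Dppa2 and Nr0b1. Among neighbours in that order, L1td1 and Tdh, Zscan10 and Dppa4, Dppa4 and Dppa3, and Dppa2 and Nr0b1 could not be ordered by counting error alone in the CONT-labelled library, and Zscan10 and Nr0b1 could not in the iKO-labelled library. The intervals of Zscan10 and Dppa3, which are not neighbours, also overlapped in the CONT-labelled library.

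**Figure D2:**
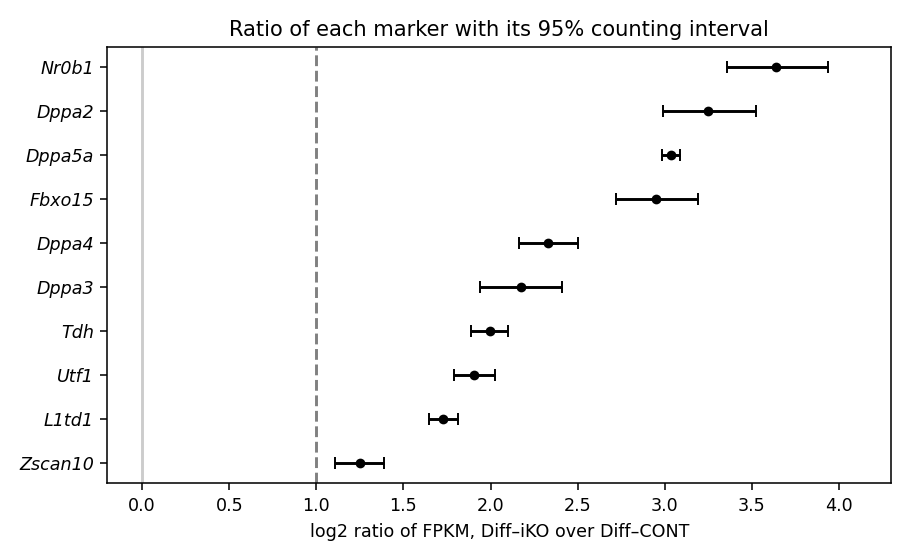
Log2 ratio of FPKM of the iKO-labelled library over the CONT-labelled library for each marker (points), with 95% counting intervals (bars); the dashed line marks FC of 2. The points run from 1.25 for Zscan10 to 3.64 for Nr0b1. The bars cover counting error only, and these ratios are values that chose the genes.

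Genes next to the markers were looked up, since position did not enter the choice. Within 100 kb from start to start lay 34 other genes, of which 20 had FPKM ≥ 2 in at least 1 library. Of these, 6 were higher past FC ≥ 2 (30.0%, beside 6.73% of all genes) and 0 were lower. The same minimum applied to both percentages, and 1 of the 6, Apobec1, reached it only in the iKO-labelled library. Dppa3 had 3 of the 6 around it. Gdf3, a TGF-beta family ligand gene 16323 bp before the start of Dppa3, had 4.12 FPKM in the CONT-labelled library and 49.7 in the iKO-labelled library, a fold of 12.0 (log2 interval 3.40 to 3.79). Nanog, 81079 bp after it, had 19.5 and 81.2. Apobec1, a cytidine deaminase gene 23966 bp before it, had 1.04 and 2.86. Near Dppa5a, Ooep, an oocyte gene with a KH domain, had 4.41 and 15.2 FPKM. The other 2 were Adam8, a metalloprotease gene near Utf1 (2.23 and 5.51), and Tnfrsf12a, a receptor gene near Zscan10 (44.1 and 119). Gdf3, Nanog, Apobec1 and Ooep were also members of the ES cell lists described next, so they are not independent of them.

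The other 14 neighbours with FPKM ≥ 2 were not past FC ≥ 2. Zfp13, whose start lies 1369 bp from that of Zscan10, had 6.74 and 5.46 FPKM, and Mtmr9 beside Tdh had 19.3 and 20.6. Timm21, 16742 bp from the start of Fbxo15, had 19.3 and 12.7 FPKM. Cldn6, a claudin gene 78393 bp from Zscan10, came nearest to the cut-off for lower genes with 174 and 87.6. Within 250 kb, 8 of 41 genes (19.5%) were higher and 3 were lower.

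**Figure D3:**
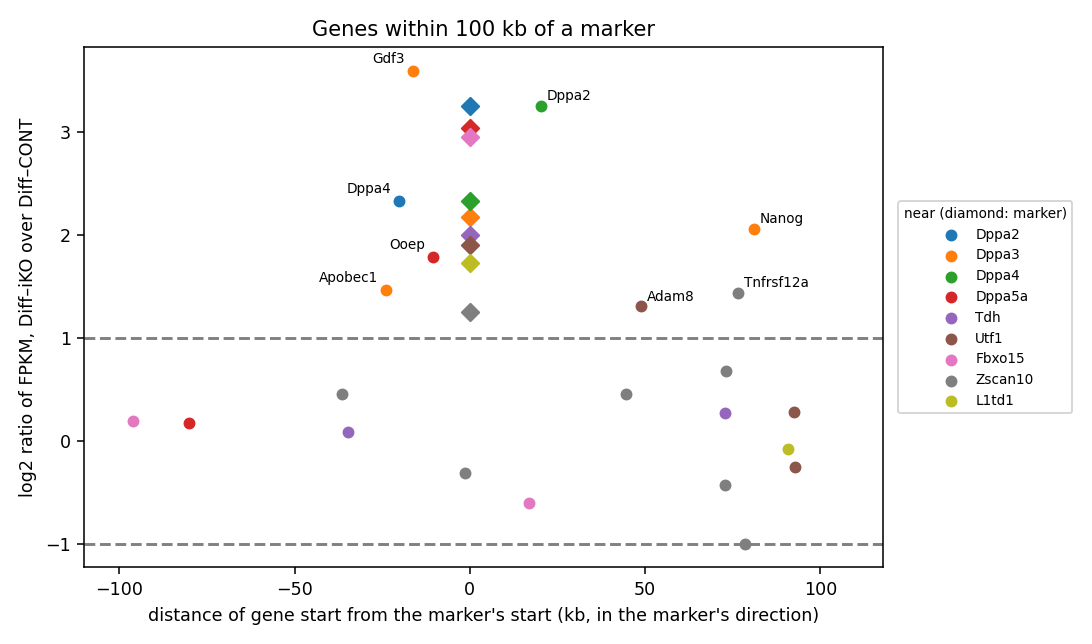
Log2 ratio of FPKM of genes within 100 kb of a marker (circles, coloured by marker) against the distance between starts in kb, with the markers themselves as diamonds at 0 and dashed lines at FC of 2 in each direction. Gdf3, Nanog and Apobec1 near Dppa3, Ooep near Dppa5a, Adam8 near Utf1 and Tnfrsf12a near Zscan10 lie above the upper dashed line, and Dppa2 and Dppa4 appear as each other's neighbour.

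The core factors stood beside the markers as follows. Pou5f1 had 60.8 FPKM in the CONT-labelled library and 247 in the iKO-labelled library, a fold of 4.07, and Nanog had a fold of 4.16. Both lay near the middle of the range of the 10 markers. Sox2, with 42.7 and 68.2 FPKM, and Sall4, with 27.5 and 28.6, were not past FC ≥ 2.

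Of 10 naive pluripotency factors with FPKM ≥ 2, 9 were higher and 0 lower past FC ≥ 2, with a median log2 ratio of 2.16, beside the 2.24 of the markers. Of the 9, Prdm14 and Nr5a2 reached the minimum only in the iKO-labelled library. The Krüppel-like factor genes Klf2, Klf4 and Klf5 had 6.15 and 33.7, 4.77 and 21.9, and 9.57 and 20.8 FPKM. Tfcp2l1, a factor gene downstream of LIF, had 4.72 and 12.3, and Prdm14, a repressor gene of primed fates, had 0.872 and 3.85. Zfp42, also called Rex1, had 3.20 and 14.4, and Tcl1, a coactivator of Akt, had 2.81 and 19.4. The exception was Tbx3 (11.5 and 10.1). Of 39 other ES cell markers with FPKM ≥ 2, 23 were higher (3 of them under the minimum in the CONT-labelled library) and 1 was lower, with a median of 1.38. Spp1, the osteopontin gene, had 73.6 and 508 FPKM, whereas Cdh1, the E-cadherin gene, had 166 and 268 and Slc2a3, a glucose transporter gene, had 933 and 483.

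Genes listed for the next stage, the formative and primed epiblast, did not share this pattern as a list. The list was not limited to genes that only the epiblast expresses. Of 12 such genes, 3 were higher and 4 lower past FC ≥ 2, with a median log2 ratio of -0.52. Of these, 1 and 3 reached the minimum only in the library where they were higher. Nodal had 22.9 FPKM in the CONT-labelled library and 78.2 in the iKO-labelled library, Otx2 had 23.3 and 14.2, and Cer1 had 3.23 and 0.258.

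Markers of other cell types that also use some of these genes were examined. Of 9 germ cell markers with FPKM ≥ 2, 6 were higher and 0 lower, with a median log2 ratio of 1.68 over 10 genes. For 3 of the 6 (Ddx4, Sycp3 and Piwil2) the FPKM minimum was reached only in the iKO-labelled library, so the count follows in part from that minimum. The median used genes whose mean FPKM was 1 or more, and it was 1.43 without a filter. Tfap2c, a germ cell and trophoblast factor, had 6.68 and 24.1 FPKM, and Tdrd12, a piRNA pathway gene, had 3.32 and 16.1. Piwil2, of the same pathway, had the highest ratio among those with FPKM ≥ 2, with 0.402 and 2.71, and Prdm1, a germ cell specification factor gene, had 2.999 and 3.12. The defining germ cell genes were low. Ddx4 had 1.48 and 4.42 FPKM, Dazl 0.269 and 1.89, Nanos3 0.552 and 0.734, and Dnd1 2.03 and 3.65. Of these 4, Ddx4 was called higher, and Dazl, with a fold of 7.05, stayed under the FPKM minimum. Summed over 15 germ cell genes the FPKM was 164 and 451, most of it Ifitm3 (143 and 387), an interferon-induced membrane protein gene that many cells express. Two-cell-stage genes, which Dppa2 and Dppa4 are known to act upstream of through Dux, were low in both libraries. Of 21 measured, 3 reached FPKM ≥ 2, and they did so in the iKO-labelled library alone. Their calls and their place in the median thus followed in part from the filters and are given as a description. Summed over the 21 genes the FPKM was 1.12 and 21.3. Without a filter the median log2 ratio of the list, with 0.1 added to each FPKM, was 2.63. Zscan4a had 0.0322 and 2.60 FPKM, Zscan4d had 0.0553 and 2.30, and Usp17le had 0.0784 and 2.15. The median log2 ratio of these 3 was 3.95, and it was 1.64 with a pseudocount of 1, below the markers at 2.15. It rests on 2, 3 and 4 fragments in the CONT-labelled library, which give folds of 81.0 (interval 21.9 to 676), 41.5 (13.8 to 204) and 27.4 (10.3 to 103). Copies of Zscan4 and of Usp17l genes are nearly identical, so their values are uncertain. Dux was listed at 0 in the CONT-labelled library and had 0.0727 in the iKO-labelled library.

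Markers of differentiated cell types differed between the libraries as well. Of 15 primitive and visceral endoderm genes with FPKM ≥ 2, 0 were higher and 13 were lower in the iKO-labelled library, 6 of them under the minimum there, with a median log2 ratio of -2.36. Afp, the alpha-fetoprotein gene, had 45.9 and 0.422 FPKM and Ttr, the transthyretin gene, had 66.7 and 2.28. Apob, an apolipoprotein gene, had the lowest ratio with 47.0 and 0.290, and the endocytic adaptor gene Dab2 had 50.6 and 7.71. The other defining endoderm genes were lower as well, Apoa1 with 34.8 and 0.444 and the factor gene Hnf4a with 4.33 and 0.0963. The ESC lines were derived on MEF feeders and then kept on gelatin-coated dishes. Of 13 fibroblast and mesenchyme genes with FPKM ≥ 2, 1 was higher and 6 were lower (1 of these under the minimum in the iKO-labelled library), with a median of -0.99. The most abundant, Col1a1 (880 and 1199 FPKM), Vim (563 and 560) and Col3a1 (386 and 187), did not go one way. Lum, a matrix proteoglycan gene, had the lowest ratio with 46.3 and 8.00 and S100a4, a calcium-binding protein gene, the highest with 7.88 and 27.2. Of the other defining fibroblast genes, Dcn had 73.2 and 33.9 and Pdgfrb 39.3 and 26.3. Of 18 trophoblast genes, 7 were higher and 4 lower, with a median of 0.29 and with Prl3d1 (0.484 and 6.19) and Cdx2 (4.00 and 0.705) at the ends. In this list 5 of the 7 higher genes and 3 of the 4 lower ones reached the FPKM minimum only in the library where they were higher. The most abundant were the keratin genes Krt18 (522 and 721) and Krt8 (407 and 575) and the imprinted gene Peg10 (290 and 283). Other defining trophoblast genes went different ways, with Hand1 at 70.8 and 31.3, Gata3 at 10.3 and 9.85, Tpbpa at 1.07 and 5.63, and Elf5 near 0 at 0.0687 and 0.299. The summed FPKM was 686 and 627 for 16 endoderm genes (of which the basement membrane gene Col4a1 had 327 and 575), 2555 and 2315 for 14 mesenchyme genes, and 1395 and 1802 for 22 trophoblast genes. The part of these differences in the values of the 10 markers was not tested.

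**Figure D4:**
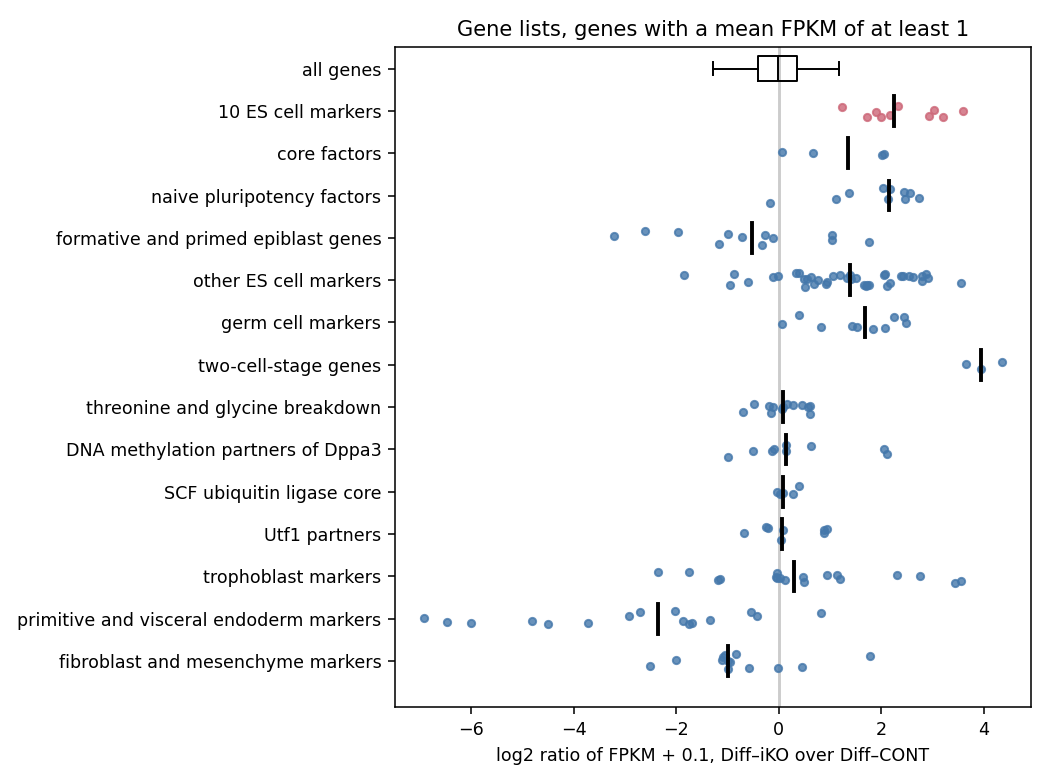
Log2 ratio of FPKM + 0.1 of the iKO-labelled library over the CONT-labelled library for genes whose mean FPKM was 1 or more, by list (points; red for the 10 markers), with the median of each list as a black bar and all genes as a box with whiskers at the 5th and 95th percentiles. The medians were 2.24 for the 10 markers, 2.16 for naive factors, 0.07 for threonine and glycine breakdown and -2.36 for endoderm; the lists of threonine and glycine breakdown, SCF core and Utf1 partners had medians below 0 after both libraries were set to equal sums.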

How the data were processed

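Poly(A) RNA was measured in 2 libraries, 1 per condition. The authors deposited FPKM values per gene, made with STAR (v2.7.9a) on mm10 and with Cuffquant and Cuffnorm of Cufflinks (v2.2.1), per the submitters' processing notes and the methods. The gene annotation and strand setting are not given in the sources used here. Both columns of values were assigned to samples by name, with 0 columns left over.

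The log2 ratio was taken without a pseudocount, and genes were called at FC ≥ 2 and FPKM ≥ 2 in at least 1 library. List medians used FPKM + 0.1 over genes whose mean FPKM was 1 or more. No test was possible, so no p-value is given. Fragments per gene were recovered from the steps of FPKM in 5792 genes (a single RefSeq transcript, 1000 nucleotides or longer), where 86.0% and 84.8% of low values lay within 0.2 of a whole number of fragments (40% by chance). Ratio intervals are exact Clopper-Pearson 95% intervals on those fragments, using the shortest RefSeq-linked GENCODE vM21 transcript, and level intervals are exact Poisson intervals. Coordinates are from GENCODE vM21 (GRCm38), which matched 23315 symbols, and promoters from RefSeq (GRCm38.p6).

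The markers, the 13 other lists and the tests were chosen with earlier results of these data known. Lists overlap: Dnmt3b, Dnmt3l, Tet1 and Tet2 are in 2 lists each. Genes that could be named were the 10 markers, Ino80, core, naive and threonine pathway genes past the FPKM minimum, neighbours past it, and in each other list the 3 most abundant genes and those with the highest and lowest ratio. The defining markers of each cell type were listed separately, and Dnmt3l, Dux, Dppa1 and Sycp3 were named after their values were seen. Alternatives were other pseudocounts, FPKM filters, fold changes, scalings, neighbour windows and summed rows of a symbol. The steps were tested on simulated data. Intervals were computed with scipy 1.17.1, tables with pandas 2.3.3 and numpy 2.4.6 under Python 3.11.15, and plots with matplotlib 3.10.9.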

Additional observations from a re-analysis of the deposited data

How the results depend on the processing

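All 10 markers stayed past the cut-off under pseudocounts of 0.1 and 1, 3 other scalings, FPKM ≥ 5 or no filter, FC ≥ 1.5 and summed rows (0 symbols are repeated), and 6 did with FC ≥ 4. The markers were chosen on these values. FPKM ≥ 5, no filter, FC ≥ 1.5 and summed rows could remove none of them, so nothing is read from those settings. Scaling shifted all log2 ratios by between -0.09 and 0.01. The marker median of 2.25 lay between 2.15 and 2.26. Of 60 recomputed log2 ratios of single markers, 55 stayed within their counting interval, and the lowest was 1.15. With FPKM ≥ 5, 566 genes were higher and 671 lower. Without an FPKM filter 2794 genes were higher and 2761 lower, with 82 genes of the other lists and 10 neighbours higher. With FC ≥ 1.5, 1846 genes were higher and 2177 lower. With FC ≥ 4, 278 genes were higher and 237 lower, as were 32 and 15 genes of the other lists, and 2 neighbours were higher. Scaling each library to the same sum turned 3 medians near 0 below it, to -0.0199 for threonine and glycine breakdown, -0.0192 for the SCF core and -0.0318 for Utf1 partners. The median of the two-cell-stage genes, 3.95, was 5.14 and 1.64 with pseudocounts of 0.01 and 1 and 2.63 without a filter. Markers with few fragments in the library labelled Diff–CONT, such as Nr0b1 (112) and Dppa2 (133), are the least precise. No paired analysis was possible because each condition had 1 library, and for the same reason no library could be left out.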
